A study of Mus musculus with 4 samples.

Results

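Transcripts of microglia and macrophages were followed in RNA-seq libraries of brain cells sorted for CD31, the surface protein PECAM1 of endothelial cells. The rule named 10 genes, *Csf1r*, *Aif1*, *Cx3cr1*, *C1qa*, *C1qb*, *C1qc*, *P2ry12*, *Tyrobp*, *Fcer1g* and *Mrc1*, and all 10 were found among the 12693 gene symbols of the table. They were matched by symbol, and their list was chosen with earlier results of these data known. They were compared between genotypes and set against *Cldn5*, a tight junction gene, and *Pecam1*, the gene of CD31. The cells came from the cerebral cortex of C57BL/6 embryos at embryonic day 18, in 2 wild-type and 2 *Foxq1* cKO samples. The wild-type group is described in the study as littermates without the Cre transgene. The *Foxq1* cKO group carried FOXQ1fl/fl;Tie2-Cre, a floxed *Foxq1* allele deleted by Cre under the *Tie2* (*Tek*) promoter. That promoter is known to be active in blood progenitors as well as in endothelium, so the deletion need not be limited to endothelial cells. Neither the labels nor the methods say whether a sample was 1 embryo or a pool, so p-values measure the spread between these samples only.

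Microglia are the macrophages of the brain parenchyma. They arise from yolk sac progenitors, depend on signalling through the receptor CSF1R, and take up dying cells and synapses tagged by complement C1q in the developing cortex. Border-associated macrophages, which carry the mannose receptor MRC1, sit in the meninges and along vessels outside the parenchyma. Some macrophages are attached to vessels when tissue is dissociated, and PECAM1 is also found on platelets and on several white blood cells, so a CD31 sort can hold such cells.

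The libraries held between 15827166 and 21466436 reads on listed genes. Values are normalised counts, which are reads divided by 1 size factor per library. *Foxq1* had 353 and 297 normalised counts in wild type against 5.44 and 32.6 in *Foxq1* cKO, in the order of replicates 1 and 2 that is used throughout. On the opposite strand, *A530084C06Rik* shares 3200 bp of its exons, and the strand setting of the counting is not given in the sources used here. All 14 endothelial markers compared were measured, and *Cldn5* lay between 126706 and 151977 normalised counts in every library. Of 12472 genes tested with limma, 651 (5.22%) had an unadjusted p below 0.05, with 3.05% of genes lower and 2.17% higher in *Foxq1* cKO. None passed Benjamini-Hochberg adjustment in limma, where the smallest adjusted p was 0.857, or in edgeR, where 632 genes (4.98%) had an unadjusted p below 0.05. DESeq2 on the recovered reads gave 824 genes (6.49%) at an unadjusted and 59 (0.465%) at an adjusted p below 0.05.

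Of the 10 genes, *Csf1r* alone had an unadjusted p below 0.05, and it fell in *Foxq1* cKO. The share was 1 of 10, beside 5.22% of all genes. The log2 fold change was below 0 in 6 of the 10, beside 49.3% of all genes, and its median was -0.31 against 0.0086 over all genes tested. In 3 genes (*Csf1r*, *Cx3cr1* and *C1qb*) both cKO libraries were below both wild-type libraries, and in 1 gene (*C1qc*) both were above. Over all genes, groups did not overlap in 36.0%, made up of 2249 genes lower and 2239 higher in cKO, so 4 of 10 was near the background. In these bulk samples, fewer cells of a type and less RNA per cell cannot be told apart.

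**Figure D1:**
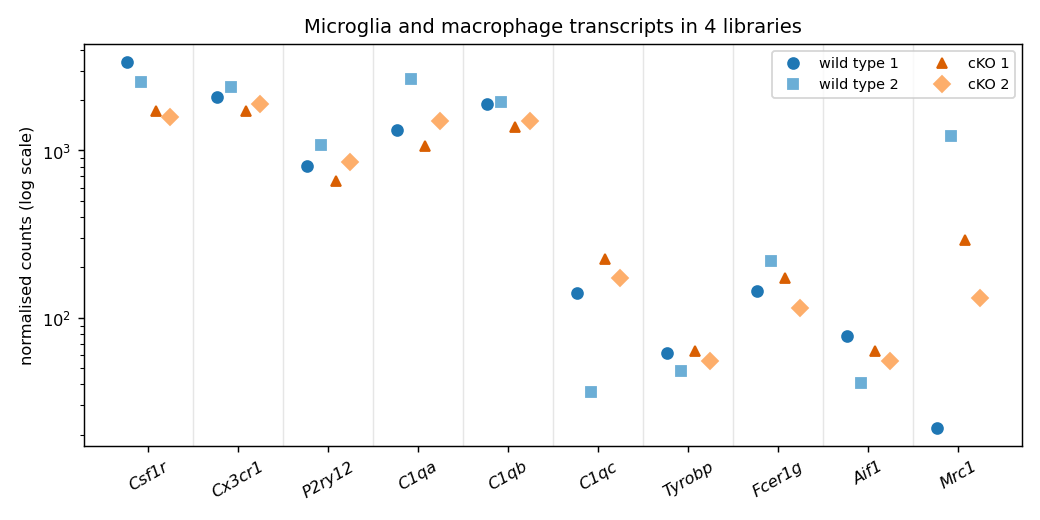
Normalised counts (log scale) of the 10 genes in each of the 4 libraries, with 1 point per library and the shape and colour giving the library. *Csf1r*, *Cx3cr1*, *C1qa* and *C1qb* lie at 1057 or above in all 4 libraries, *Aif1* and *Tyrobp* lie at 77.5 or below, and *Mrc1* spreads from 21.9 to 1217 within wild type.

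The receptors were examined first. *Csf1r* (ENSMUSG00000024621, chromosome 18, 61100598 to 61132149, GRCm38) encodes the receptor for CSF1 and IL34, on which microglia depend for survival. It had 3365 and 2579 normalised counts in wild type against 1732 and 1587 in *Foxq1* cKO, from 3994, 2587, 1591 and 1560 reads. The lower wild-type library was still above both cKO libraries. The cKO mean was 55.8% of the wild-type mean, with a log2 fold change of -0.83 (standard error 0.229, unadjusted p = 0.0109, adjusted p = 0.857 in limma). edgeR gave an unadjusted p of 0.00957 and DESeq2 an adjusted p of 0.201. The call ended in 1 of 11 alternatives with all 4 samples, limma's eBayes without a trend (unadjusted p = 0.0575 in limma). It also ended without wild-type replicate 1 (log2 fold change -0.64, unadjusted p = 0.0568 in limma) and without *Foxq1* cKO replicate 2 (-0.77, unadjusted p = 0.0647 in limma). On the GRCm38 annotation, 15.1% of the exon length of *Csf1r* overlaps *Hmgxb3* on the opposite strand, so part of its reads cannot be assigned with certainty. *Hmgxb3* itself had 147 and 472 normalised counts in wild type against 592 and 415 in *Foxq1* cKO, so the highest and the lowest library were not the same for the 2 genes.

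*Cx3cr1* (ENSMUSG00000052336, chromosome 9, 119901616 to 120069879, GRCm38) encodes the microglial receptor for the neuronal and endothelial chemokine CX3CL1. It had 2085 and 2393 normalised counts in wild type against 1732 and 1893 in *Foxq1* cKO. The groups did not overlap, but the gap between them was smaller than the distance between the wild-type libraries. Its log2 fold change was -0.30 (standard error 0.216, unadjusted p = 0.210 in limma). *P2ry12* (ENSMUSG00000036353, chromosome 3, 59216272 to 59262871) encodes the ADP receptor that guides microglial processes, and is also found on platelets. It had 813 and 1074 normalised counts in wild type against 656 and 859 in *Foxq1* cKO, so the groups overlapped. Its log2 fold change was -0.32 (standard error 0.336, unadjusted p = 0.384 in limma). Neither receptor passed the test.

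**Figure D2:**
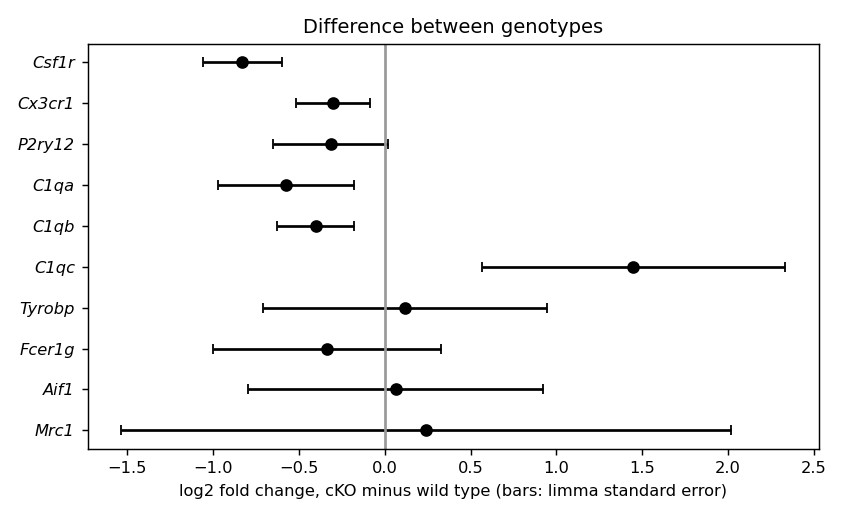
Log2 fold change (cKO minus wild type) of the 10 genes with limma's standard error as bars, and a line at 0. *Csf1r*, at -0.83, lies farthest below 0 relative to its error, and the bar of *Mrc1* spans 1.78 on each side.

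The chains of complement C1q were examined next. C1q starts the classical complement pathway, and its protein is built from equal numbers of A, B and C chains, so the 3 genes are usually read as a set. In GRCm38 they lie side by side on the minus strand of chromosome 4, *C1qb* (ENSMUSG00000036905) at 136880129 to 136886187, *C1qc* (ENSMUSG00000036896) at 136889804 to 136893065 and *C1qa* (ENSMUSG00000036887) at 136895917 to 136898803. No annotated exon of another gene overlaps theirs. *C1qb* and *C1qc* are the pair whose cKO libraries lay on opposite sides of wild type, and their RefSeq promoter windows (GRCm38.p6, 250 bases before to 50 after the start) are shown for that reason. Capitals mark GAGGAA, a core of sites of the myeloid factor PU.1, and GTTTC, the letters the study examined for FOXQ1, each on either strand (TTCCTC and GAAAC). The windows are chr4:136886151-136886450 for *C1qb* and chr4:136892865-136893164 for *C1qc*, both read 5′ to 3′ on the minus strand.
C1qb: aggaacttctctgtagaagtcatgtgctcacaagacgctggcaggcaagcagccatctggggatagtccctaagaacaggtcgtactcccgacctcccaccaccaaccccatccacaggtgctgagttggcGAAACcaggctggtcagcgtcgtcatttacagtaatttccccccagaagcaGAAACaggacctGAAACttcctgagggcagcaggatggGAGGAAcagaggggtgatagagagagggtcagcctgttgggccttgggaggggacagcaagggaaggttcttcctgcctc
C1qc: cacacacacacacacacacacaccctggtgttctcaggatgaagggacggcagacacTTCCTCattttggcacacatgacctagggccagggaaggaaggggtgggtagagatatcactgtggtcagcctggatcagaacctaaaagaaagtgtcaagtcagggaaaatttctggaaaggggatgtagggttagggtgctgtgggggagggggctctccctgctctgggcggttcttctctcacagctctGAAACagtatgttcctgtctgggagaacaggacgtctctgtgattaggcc
GAGGAA was found 1 time in each window, and GTTTC 3 times in *C1qb* and 1 time in *C1qc*. Windows were at hand for 7 of the 10 genes, of which 4 held GAGGAA and 4 held GTTTC. Of 32851 promoter windows of this length, 28.3% held GAGGAA and 45.0% held GTTTC. These matches describe the letters only, and binding was not measured in these libraries.

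*C1qa* had 1320 and 2673 normalised counts in wild type against 1057 and 1499 in *Foxq1* cKO. The groups overlapped, since wild-type replicate 1 lay below *Foxq1* cKO replicate 2. Its log2 fold change was -0.58 (standard error 0.397, unadjusted p = 0.196 in limma), and it came to -0.069 without wild-type replicate 2 and to -1.09 (unadjusted p = 0.0159 in limma) without wild-type replicate 1. *C1qb* had 1884 and 1938 normalised counts in wild type against 1388 and 1505 in *Foxq1* cKO. Its libraries agreed closely within each group and the groups did not overlap. The cKO mean was 75.7% of the wild-type mean, with a log2 fold change of -0.40 (standard error 0.224, unadjusted p = 0.121 in limma).

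*C1qc* went the other way. It had 141 and 35.9 normalised counts in wild type against 224 and 172 in *Foxq1* cKO, from 167, 36, 206 and 169 reads. Both cKO libraries were above both wild-type libraries, and the wild-type libraries differed from each other 3.92-fold. Its log2 fold change was 1.45 (standard error 0.885, unadjusted p = 0.152 in limma), and it was 0.48 without wild-type replicate 2 and 2.42 (unadjusted p = 0.0246 in limma) without wild-type replicate 1.

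Per kilobase of exon, the A and B chain transcripts were at similar levels and the C chain transcript was far below them in every library. *C1qa* had between 1016 and 2570 and *C1qb* between 1276 and 1781 normalised counts per kilobase, against 18.6 to 116 for *C1qc*. The ratio of *C1qa* to *C1qc* per kilobase was 17.4 and 138 in wild type against 8.75 and 16.2 in *Foxq1* cKO. The ratio of *C1qb* to *C1qc* was 23.8 and 95.8 in wild type against 10.98 and 15.5 in *Foxq1* cKO. *C1qa* and *C1qb* themselves stood at a ratio between 0.733 and 1.44. The share of *C1qc* in the sum of the 3 genes was between 0.425% and 4.82%, lowest in wild-type replicate 2, where *C1qa* was highest.

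**Figure D3:**
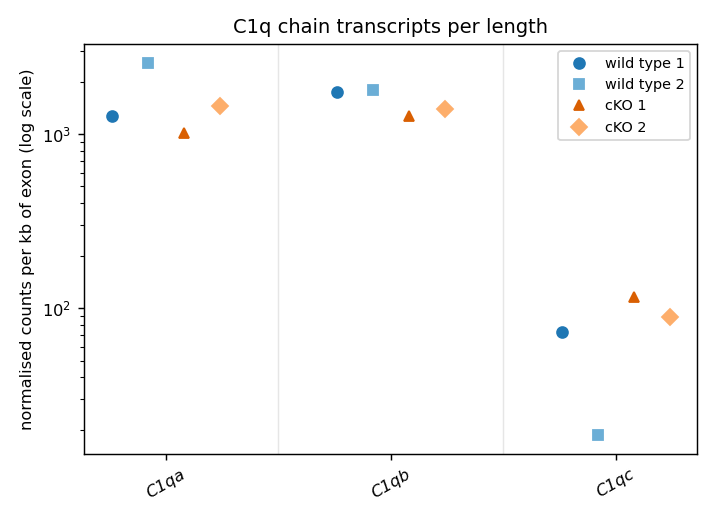
Normalised counts per kilobase of exon (log scale) of the 3 C1q chain genes, with 1 point per library. *C1qc* lies between 18.6 and 116 and below *C1qa* and *C1qb* in all 4 libraries.

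*Tyrobp* and *Fcer1g* encode small membrane adaptors that carry an activation motif and pass on signals from receptors such as TREM2 and the Fc receptors. *Tyrobp* (ENSMUSG00000030579, chromosome 7, 30413760 to 30417585) had 61.5 and 47.9 normalised counts in wild type against 63.1 and 54.9 in *Foxq1* cKO, a log2 fold change of 0.12 (standard error 0.827, unadjusted p = 0.893 in limma). *Fcer1g* (ENSMUSG00000058715, chromosome 1, 171229572 to 171234365) had 144 and 219 normalised counts in wild type against 172 and 115 in *Foxq1* cKO, with a log2 fold change of -0.34 (standard error 0.664, unadjusted p = 0.630 in limma). The groups overlapped for both adaptors. *Aif1* (ENSMUSG00000024397, chromosome 17, 35170991 to 35176068) encodes IBA1, the actin-binding protein by which microglia are commonly stained. It had 77.5 and 40.9 normalised counts in wild type against 63.1 and 54.9 in *Foxq1* cKO, so the cKO libraries lay between the wild-type libraries. *Tyrobp* and *Aif1* had equal read numbers in *Foxq1* cKO, 58 in replicate 1 and 54 in replicate 2. With 41 to 92 reads per library, their standard errors (0.827 and 0.858) were far larger than their log2 fold changes (0.12 and 0.063), so no difference was detectable at this depth.

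*Mrc1* (ENSMUSG00000026712, chromosome 2, 14229392 to 14332057) encodes the mannose receptor of border-associated macrophages, and it is also made by some endothelial cells. It had 21.9 and 1217 normalised counts in wild type against 291 and 132 in *Foxq1* cKO. The wild-type libraries differed 55.6-fold, and both cKO libraries fell between them. The log2 fold change was 0.24 (standard error 1.78, unadjusted p = 0.897 in limma), although the cKO mean was 34.1% of the wild-type mean. The sign therefore depends on the scale, and on the recovered reads edgeR gave -1.55. Without wild-type replicate 1 the log2 fold change was -2.63 (unadjusted p = 0.00586 in limma), and without wild-type replicate 2 it was 3.11 (unadjusted p = 0.0145 in limma), so the remaining wild-type library set the direction.

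Wild-type replicate 2, the library highest for *Mrc1*, also stood high for other genes of border-associated macrophages. Of the 18 listed genes 7 were measured. The other 11, among them *Lyve1*, *Cd163*, *Ms4a7* and *Cd209f*, were not among the 12693 gene symbols of the table. Apart from *Mrc1*, wild-type replicate 2 was the highest library in 5 of the other 6, and wild-type replicate 1 was the lowest in 3. *F13a1*, the coagulation factor XIII A chain of macrophages and platelets, had 122 and 1196 normalised counts in wild type against 298 and 1.02 in *Foxq1* cKO. That last value is 1 read. *Pf4*, a platelet chemokine that these macrophages also make, had 64.0 and 213 in wild type against 20.7 and 112 in *Foxq1* cKO. *Tgfbi*, a secreted matrix protein, had 37.1 and 461 in wild type against 161 and 312 in *Foxq1* cKO. The scavenger receptor *Stab1* (3386, 7259, 5456 and 4902) and the endocytic adaptor *Dab2* (3241, 4752, 4097 and 3824) are also expressed by endothelial cells, and they spanned a narrower range. None of the 7 had an unadjusted p below 0.05 in limma, and the median log2 fold change was 0.061. The summed level of the 6 genes without *Mrc1* was 6958 and 13908 in wild type against 10145 and 9193 in *Foxq1* cKO. *Stab1* and *Dab2*, which are not limited to macrophages, made up most of this sum in every library.

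**Figure D4:**
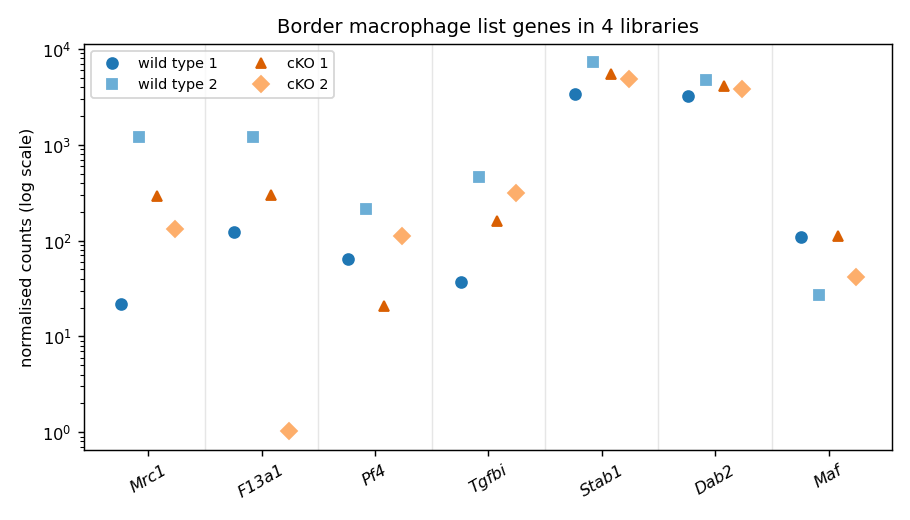
Normalised counts (log scale) of the 7 measured genes of the border-associated macrophage list, with 1 point per library. Wild-type replicate 2 is the top point for *Mrc1* and 5 of the other 6 genes, with *Maf* as the exception, and *F13a1* reaches 1.02 in *Foxq1* cKO replicate 2.

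Genes of microglial identity were read next. Of 18 listed genes 16 were measured, 2 of these were lower (*Csf1r* and *Siglech*) and 1 was higher (*Sall1*) at an unadjusted p below 0.05, beside 3.05% of all genes lower and 2.17% higher. The median log2 fold change was -0.20. *Siglech*, a sialic acid-binding lectin of microglia, fell from 356 and 284 normalised counts to 89.3 and 114, a log2 fold change of -1.65 (standard error 0.607, unadjusted p = 0.0346, adjusted p = 0.857 in limma). *Sall1*, a transcription factor of microglial identity that neural progenitors also express, rose from 168 and 316 to 670 and 605, a log2 fold change of 1.46 (standard error 0.504, unadjusted p = 0.0268, adjusted p = 0.857 in limma). For *Siglech* the call was lost when wild-type replicate 1 or either cKO library was left out, and the same held for *Sall1*, with unadjusted p-values up to 0.117 and 0.128 in limma. *Fcrls*, an Fc receptor-like gene of microglia, was nearly level at 1199 and 1092 against 1060 and 1172. *Adgrg1*, an adhesion receptor of microglia and neural progenitors, had 2337 and 2297 against 1964 and 1876. *P2ry13*, a further ADP receptor, had 324 and 390 against 65.3 and 289. *Tmem119*, a membrane protein used to mark microglia, spread widely within both groups, at 31.2 and 431 in wild type against 133 and 647 in *Foxq1* cKO.

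Among adaptor signalling genes 12 of 23 were measured and none passed an unadjusted p of 0.05 in limma, with a median log2 fold change of -0.24. The tyrosine kinase *Lyn* (4240, 3663, 3598 and 4146), the inositol phosphatase *Inpp5d* (2284, 2442, 2223 and 2053) and the scaffold *Lcp2* (2845, 1779, 1731 and 1092) had the highest counts, followed by the kinase *Syk* (233, 502, 407 and 405). *Trem2*, the lipid receptor that signals through TYROBP, had 47.2 and 51.8 in wild type against 63.1 and 106 in *Foxq1* cKO. *Fcgr3*, an Fc receptor that uses FCER1G, had 392 and 380 against 253 and 350.

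On the axis of *Csf1r*, 11 of 14 genes were measured, and *Csf1r* was the 1 that passed, beside 5.22% of all genes, with a median log2 fold change of 0.12 over the list. The ligand *Csf1* had 1207 and 1766 normalised counts in wild type against 701 and 986 in *Foxq1* cKO, with no overlap and a log2 fold change of -0.81 (standard error 0.336, unadjusted p = 0.0517 in limma). The other ligand, *Il34*, had 692 and 675 against 756 and 498. The signalling adaptors *Cbl* (1975, 1747, 2113 and 1939) and *Grb2* (1214, 892, 483 and 834) act downstream of many receptors. Among myeloid transcription factors, *Irf8* had 249 and 64.8 against 182 and 238 and *Runx1* had 37.1 and 152 against 1.09 and 39.7, and the groups overlapped for both. *Spi1*, which encodes PU.1, *Cebpa* and *Ikzf1* were not among the gene symbols of the table.

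Of 25 complement genes, 11 were measured, with a median log2 fold change of 0.0021. At an unadjusted p below 0.05 in limma 0 were lower and 1 was higher, beside 3.05% and 2.17% of all genes. The gene that passed is not reported here. The highest gene of the list was *Cd93*, an endothelial and myeloid receptor once held to bind C1q, whose libraries overlapped at 14073 and 14206 against 12865 and 15604. *Itgam*, the CD11b chain of complement receptor 3, had 153 and 89.7 against 41.4 and 5.09, a log2 fold change of -2.88 (standard error 1.20, unadjusted p = 0.0528 in limma). Its reads are uncertain, since on the GRCm38 annotation 68.7% of its exon length is shared with *Gm49368* on the same strand. *C3ar1*, the receptor for C3a, had 40.4 and 49.8 against 49.0 and 160.

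Genes of the phagocytic microglial state were measured for 14 of 18, of which 3 were lower and 0 higher at an unadjusted p below 0.05 in limma, beside 3.05% and 2.17% of all genes, with a median log2 fold change of -0.24. *Apoe*, a lipid carrier of microglia and astrocytes, fell from 21224 and 19388 normalised counts to 14576 and 12318, a log2 fold change of -0.60 (standard error 0.135, unadjusted p = 0.00425, adjusted p = 0.857 in limma). The call held with any 1 sample left out and ended with eBayes without a trend (unadjusted p = 0.110 in limma). For the tetraspanin *Cd63*, at 3665 and 3238 against 2405 and 2583, the log2 fold change was -0.47 (standard error 0.189, unadjusted p = 0.0475, adjusted p = 0.857 in limma). For the tetraspanin *Cd9*, at 2996 and 3019 against 2285 and 1820, it was -0.56 (standard error 0.212, unadjusted p = 0.0379, adjusted p = 0.857 in limma), and both tetraspanins are made by many cell types. Scaled to the endothelial list, these 2 no longer passed, at unadjusted p-values of 0.132 and 0.130 in limma. *Cd63* was lost with any 1 sample left out (up to 0.180 in limma, unadjusted), and *Cd9* with any but *Foxq1* cKO replicate 1 left out (up to 0.200 in limma, unadjusted). The proteases *Ctsb* (12196, 12288, 9334 and 10923) and *Ctsl* (7435, 5818, 5177 and 5782) were lower in both cKO libraries without passing. *Apoe*, *Ctsb* and *Ctsl* had more counts than *Csf1r* in every library, and which cells these transcripts came from was not tested. *Spp1*, the secreted protein osteopontin, had 3985 and 2206 against 6547 and 3192. *Cd68*, a lysosomal protein of phagocytes, had 130 and 216 against 370 and 268. The astrocyte gene *Gfap* was also lower, at 3073 and 2420 in wild type against 1081 and 1329 in *Foxq1* cKO. Its log2 fold change was -1.19 (unadjusted p = 0.00310, adjusted p = 0.857 in limma), and DESeq2 gave an adjusted p of 0.0162. Of 10 genes in the astrocyte and oligodendrocyte list 6 were measured, and *Gfap* was the 1 that passed, beside 5.22% of all genes. Log2 fold changes were below 0 in 5 of the 6, beside 49.3% of all genes. *Aqp4*, another astrocyte gene, was higher in both cKO libraries, at 1550 and 1678 against 1845 and 1695. The summed level of the 6 was 17194 and 15497 against 12463 and 13087, and its part in the *Apoe* difference was not tested.

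Ligands and receptors for chemokines and purines were measured for 13 of 19, and none passed in limma, with a median log2 fold change of -0.30. *Cx3cl1*, the ligand of CX3CR1, had 1079 and 1293 normalised counts in wild type against 656 and 884 in *Foxq1* cKO (log2 fold change -0.63, unadjusted p = 0.0903 in limma). *Cxcl12*, a chemokine of vessel and meningeal cells, had 14668 and 11503 against 15309 and 18472. *Entpd1*, which degrades ATP, had 1589 and 1768 against 870 and 1849. *P2ry6*, a UDP receptor, had 709 and 484 against 300.5 and 251 (log2 fold change -1.09, unadjusted p = 0.0530 in limma). Of 14 genes common to white blood cells 8 were measured and none passed in limma, with a median of -0.14. *Laptm5*, a lysosomal protein, had 2512 and 2031 against 1744 and 1314, and *Lcp1*, an actin bundler, had 8465 and 6695 against 6314 and 4596. The oxidase subunit *Cyba* (1688, 1657, 1438 and 1657) and *Arhgdib* (1813, 1138, 1384 and 1191), an inhibitor of small GTPases, overlapped between the groups. *Ptprc*, the CD45 antigen that defines white blood cells, had 5.06 and 95.7 against 265 and 59.0, from 6, 96, 243 and 58 reads.

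The level of the genes was then set against the endothelium. Per kilobase of exon, the order of the means over the 4 libraries ran from *C1qa* (1574) and *C1qb* (1543) to *Cx3cr1* (449.6), *Csf1r* (401), *P2ry12* (334), *Fcer1g* (186), *Tyrobp* (85.2), *C1qc* (74.2), *Mrc1* (65.2) and *Aif1* (38.6). The libraries of neighbours overlapped at 6 of the 9 steps. They did not overlap between *C1qb* and *Cx3cr1*, between *P2ry12* and *Fcer1g*, and between *Fcer1g* and *Tyrobp*.

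Per kilobase, *Csf1r* stood at 0.543% and 0.463% of *Cldn5* in wild type against 0.335% and 0.289% in *Foxq1* cKO. Relative to *Pecam1* it stood at 24.6% and 20.1% in wild type against 16.8% and 12.8% in *Foxq1* cKO. It stayed lower in both cKO libraries on either scale, with cKO to wild-type ratios of 0.620 and 0.661. *Cldn5* and *Pecam1* themselves had log2 fold changes of -0.14 (unadjusted p = 0.161 in limma) and -0.23 (unadjusted p = 0.160 in limma). Those of *Tek* and *Cdh5* were -0.041 and 0.12. Of the 14 endothelial genes, 11 were below 0 and 3 above, beside 49.3% of all genes below 0, and the median was -0.16. Both cKO libraries were below both wild-type libraries in 7 of the 14 and above in 1, beside 36.0% of all genes without overlap. *Cx3cr1* no longer separated the groups, at 0.431% and 0.550% against 0.430% and 0.441% of *Cldn5*. *C1qb* kept its cKO libraries lower at 1.61% and 1.85% against 1.43% and 1.45% of *Cldn5*, and *C1qc* kept them higher at 0.0679% and 0.0193% against 0.130% and 0.0935%. Against *Cldn5*, 2 of the 10 genes were lower, 2 were higher and 6 overlapped between the groups. Over all genes set against *Cldn5*, groups did not overlap in 36.7%, made up of 1530 genes lower and 3053 higher. Against *Pecam1* the numbers were 2, 1 and 7, and the difference lay in *Tyrobp*. Over all genes set against *Pecam1* the share was 37.6%, made up of 1141 genes lower and 3550 higher. Both counts of the 10 genes were near these shares.

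**Figure D5:**
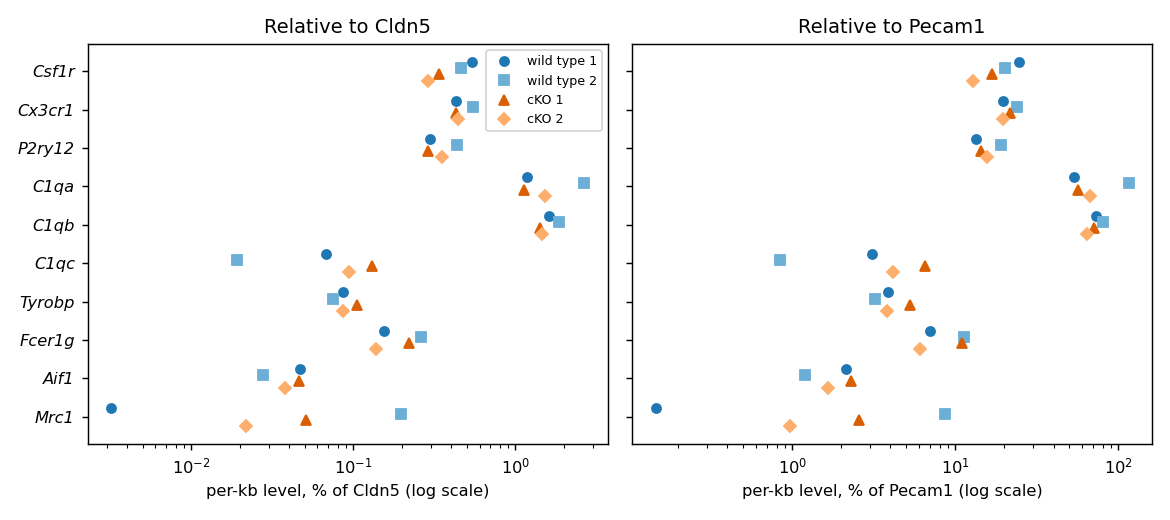
Level per kilobase of each gene as a percent of *Cldn5* (left) and of *Pecam1* (right) in the same library, both on log scales, with 1 point per library. *Csf1r* is lower in both cKO libraries in each panel, and the 2 orange points of *Cx3cr1* lie at or within the range of its blue points.

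Summed over the 10 genes without regard to length, normalised counts were 9913 and 12218 in wild type against 7379 and 7872 in *Foxq1* cKO. This was 6.52% and 8.94% of *Cldn5* in wild type against 5.82% and 5.84% in *Foxq1* cKO. Against *Pecam1* it was 67.1% and 88.4% in wild type against 66.2% and 58.7% in *Foxq1* cKO. The log2 ratio of the cKO mean to the wild-type mean was -0.54 for the sum, -0.41 per *Cldn5* and -0.32 per *Pecam1*. Without wild-type replicate 2 these came to -0.38, -0.16 and -0.10. *Csf1r*, *Cx3cr1*, *C1qa* and *C1qb* made up most of the sum in every library. The geometric mean, in which each gene counts alike, gave -0.10, 0.030 and 0.13. No test was made on these sums.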

How the data were processed

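RNA from CD31-sorted cortical cells of 2 wild-type and 2 *Foxq1* cKO embryos' samples was sequenced. The study describes Smart-seq2, whereas the labels describe libraries built from microgram amounts of total RNA. The submitters' processing notes name Bowtie2 2.2.3, TopHat2 2.0.12, HTSeq 0.6.0 and the build mm9. The authors deposited a normalised signal per gene, in which read counts are divided by 1 size factor per sample. Every value (100.0%, tolerance 0.01 reads) was a whole multiple of its sample's step, so reads were recovered. The 1207361 lines were reduced to 12693 symbols, of which 8 had 2 identifiers. No symbol had under 1 read in a sample or under 21 in all.

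limma 3.58.1 (eBayes with a trend, R 4.3.3) was fitted to log2 of the value plus 1 for the 12472 genes whose mean reached 10. The added 1 draws low values together, yet changes of low genes could be larger or smaller than in edgeR. Examples are *Itgam* (-2.88 in limma against -2.38 in edgeR) and *C3ar1* (0.97 against 1.21). Adjustment was Benjamini-Hochberg over all genes. edgeR 4.0.16 (quasi-likelihood, TMM) and DESeq2 1.42.0 on recovered reads were alternatives. The tests were first run on simulated data whose changes were larger than that of *Csf1r*, so this run does not cover smaller changes. An exact two-sided permutation test of 2 against 2 samples cannot give a p below 0.333. The call used for named genes was an unadjusted p below 0.05. Exon lengths, coordinates and overlaps came from GENCODE M21 (GRCm38), which held 12685 of 12701 identifiers, and coordinates are in that build, not mm9. The members and the lists were chosen with earlier results of these data known. Named were the 10 members, *Foxq1*, *Cldn5*, *Pecam1*, *Tek* and *Cdh5*, up to 4 genes with the highest means per myeloid list (lists of other cells are given by sums), every list gene with an unadjusted p below 0.05, and genes chosen after their values were seen (*P2ry13*, *Tmem119*, *Trem2*, *Fcgr3*, *Il34*, *Irf8*, *Runx1*, *Itgam*, *C3ar1*, *Cx3cl1*, *P2ry6*, *Ptprc*, *Pf4*, *Tgfbi*, *Hmgxb3*, *Cd68*, *Cd28*, *S100a8*, *S100a9* and *Hba-a1*). Some genes that this rule names are not reported here. Genes with the most similar profile were to be named only where the summed profile spanned more than 1 on the log2 scale, which it did not. Python 3.11.15 and pandas 2.3.3 were used. Exons shared with another gene also make *Ctsl* (26.8% and 6.09% of its length), *Spp1* (18.8%), *Ctsb* (12.8%) and *Cd9* (10.7%) uncertain. The gene models used for the counting were not examined, so whether they held these overlaps is not known. Reads without molecular identifiers are not independent molecules.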

Additional observations from a re-analysis of the deposited data

How the results depend on the processing

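Genes at an unadjusted p below 0.05 numbered between 592 and 824 over 11 alternatives with all 4 samples, against 651. With 1 sample left out in turn, where the lone sample is assumed to vary like the other group, it ranged from 276 (without *Foxq1* cKO replicate 1) to 1576 (without wild-type replicate 2). At an adjusted p below 0.05 the count was 59 in DESeq2 and 0 elsewhere, and 0 to 0 with a sample left out. The geometric mean of the 10 genes gave a log2 ratio of -0.10 for the level, 0.030 per *Cldn5* and 0.13 per *Pecam1*, since genes with few reads then weigh as much as those with many. Scaling factors per sample cancel in the ratios to *Cldn5* and *Pecam1*, so those alternatives gave no value of their own there. Leaving out *Mrc1*, an alternative chosen after the data were seen, gave -0.49, -0.36 and -0.27. With a sample left out the level ranged from -0.68 to -0.38, per *Cldn5* from -0.62 to -0.16 and per *Pecam1* from -0.50 to -0.10.

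Over 50 of the named genes (the others were given as values without a fold change) and 11 alternatives with all 4 samples, 504 results kept their direction and side of the threshold, 15 became weaker, 14 stronger and 17 reversed. The reversed log2 fold changes were themselves small apart from *Mrc1* (-1.55 in edgeR and -1.55 in DESeq2), where the log scale and the mean of reads weigh the wild-type libraries differently. In edgeR and DESeq2 they were *Aif1* (-0.0036 and -0.0047), *Tgfbi* (-0.074 and -0.071), *Stab1* (-0.040 and -0.039) and *Dab2* (-0.014 and -0.013). For *Tgfbi* the limma value had been 0.77, so its shift was not small. Under quantile normalisation they were *Aif1* (-0.061), *Tyrobp* (-0.020), *Tek* (0.084) and *Lyn* (0.048), and under endothelial scaling *Tek* (0.090), *Fcrls* (0.093) and *Lyn* (0.10). The causes were not tested. With a sample left out, signs changed for *Aif1* (-0.39 to 0.52), *Tyrobp* (-0.062 to 0.29), *Mrc1* (-2.63 to 3.11), *Tek* (-0.24 to 0.15), *Tgfbi* (-1.03 to 2.57), *Stab1* (-0.49 to 0.61), *Dab2* (-0.26 to 0.29), *Tmem119* (-0.55 to 3.19), *Fcrls* (-0.11 to 0.035), *Lyn* (-0.13 to 0.077), *Il34* (-0.45 to 0.14) and *Irf8* (-0.26 to 1.67).

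The replicate numbers are shared between the groups by label only, and the deviations of the libraries numbered 1 correlated at 0.032 across genes. With the replicate block the count at an unadjusted p below 0.05 was 693, *Csf1r* kept its call (unadjusted p = 0.00955 in limma) and *Siglech* (unadjusted p = 0.0597 in limma) and *Cd63* (unadjusted p = 0.0625 in limma) lost theirs. Under it *Lcp2*, *Csf1*, *Runx1*, *Itgam*, *Laptm5* and *Lcp1* passed, at unadjusted p-values in limma between 0.0199 and 0.0498, all lower in *Foxq1* cKO, and no other call among these genes changed. Depth limits *Aif1*, *Tyrobp*, *Trem2*, *Ptprc*, *Runx1*, *Itgam*, *C3ar1*, *Pf4*, *Maf*, *Cd28*, *S100a8*, *S100a9* and, through the cKO libraries, *Foxq1*, each with fewer than 100 reads in at least 2 libraries.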

Other observations

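Transcripts of other blood cells were present beside those of macrophages. Red cell genes were measured for 8 of 12, and their summed level was 21682 and 16433 normalised counts in wild type against 16770 and 21132 in *Foxq1* cKO, so the groups overlapped. *Hba-a1*, an alpha globin gene, held between 9021 and 11927 of these in wild type and between 9108 and 11133 in *Foxq1* cKO. Platelet genes were measured for 4 of 10 and summed to 257 and 861 in wild type against 469 and 495 in *Foxq1* cKO. Of 12 lymphocyte genes only *Cd28* was measured, with 34, 5, 22 and 14 reads. Of 12 granulocyte and mast cell genes 3 were measured, and the neutrophil genes *S100a8* and *S100a9* had 29 reads or fewer in every library. The other genes of these lists were not among the gene symbols of the table.

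Pericyte and smooth muscle genes summed to between 146111 and 160522 normalised counts, with 8 of 10 measured and none passing in limma. Neuronal and neural progenitor genes, 11 of 12 measured, summed to between 18491 and 19684. Per kilobase, the 10 microglia and macrophage genes came to between 2.65% and 4.02% of the summed endothelial list, where the pericyte list came to between 22.8% and 28.8%. Among the 14 endothelial genes, *Flt1*, a receptor for VEGF, was the 1 with an unadjusted p below 0.05 in limma (5.22% of all genes), at 15578 and 10849 in wild type against 9582 and 9017 in *Foxq1* cKO, and it did not pass after endothelial scaling (unadjusted p = 0.111 in limma) or with any but wild-type replicate 2 left out (up to 0.239 in limma, unadjusted).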
